A study of Rattus norvegicus with 24 samples.

Results

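The endothelin system was followed across the 4 tissue groups of a rat study of chronic lithium exposure. It comprises 7 genes: the ligands Edn1, Edn2 and Edn3, the receptors Ednra and Ednrb, and the converting enzymes Ece1 and Ece2. They were chosen by gene symbol, as the genes that make up this system. Of the 7, 5 genes (Edn1, Edn2, Edn3, Ece1 and Ece2) were matched to 1 transcript cluster each by the platform annotation used here, out of 14324 genes so named among 28894 clusters. The receptors Ednra and Ednrb were not analysed here.

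Male Wistar rats (6 animals) received food with 40 mmol lithium per kg for 7 days and 60 mmol per kg afterwards, 6 months in all, together with a salt block. The 6 control rats ate a standard rodent diet for 6 months, and no salt block is described for them, so that lithium and access to the block cannot be told apart. Pieces of cortex and medulla were cut from the frozen kidneys of every animal, which gave 6 lithium cortex, 6 control cortex, 6 lithium medulla and 6 control medulla arrays. Age is not given in the sources used here. Values are log2 signal intensities from Affymetrix rat gene arrays, so a difference of 1 is a doubling of the signal.

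Endothelins are short peptides cut from larger precursors, first by furin-type proteases and then by the membrane-bound endothelin-converting enzymes. They act on 2 G protein-coupled receptors. The A receptor contracts vascular smooth muscle, whereas the B receptor releases nitric oxide from endothelium and removes circulating peptide. In the kidney the collecting duct of the inner medulla is a rich source of endothelin-1, which acts there through B receptors to restrain sodium and water reabsorption. Endothelin-3 binds the B receptor in preference to the A receptor.

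Several arrays stood apart, and they touch the results below. The scan effect had been removed from the deposited values, and the cortex array of lithium animal 17, alone in its scan group, was left equal to the mean of its group (largest difference 8e-05 log2). It carries no value of its own, and the SD in lithium cortex is over 5 arrays. The cortex array of lithium animal 19 had a mean of 8.63 over 8 interstitial fibroblast markers, against 6.08 to 6.94 in the 6 control cortex arrays, and 7.70 over 9 macrophage markers, against 5.83 to 6.43. The medulla arrays of control animals 15 and 30 were the lowest of the 6 control medulla arrays for 9 intercalated cell markers (6.97 and 6.30, against 8.02 to 8.74 in the other 4), for 7 thick ascending limb markers (8.92 and 7.72, against 10.1 to 11.4) and for 9 macrophage markers (6.35 and 6.11). The same arrays were the highest for 7 inner medulla and thin limb markers (10.4 and 10.8, against 9.20 to 10.3). The tissue labels were borne out by control medulla against control cortex: 9 of 11 proximal tubule markers were lower in control medulla and 7 of 7 inner medulla and thin limb markers were higher. Over all clusters 9.63% were lower and 68.9% higher. Of the 7, Slc14a2, Slc14a1 and S100a4 had control cortex means under 6, so the filter could favour that direction for them. In these bulk samples fewer cells of a type and less RNA per cell cannot be told apart.

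The stretch of 250 bases before the annotated start is printed for Edn1 and Ece1, a ligand gene and the converting enzyme whose levels went together across the medulla arrays (below). The sequences are those of RefSeq on the GRCr8 build. Edn1 lies on the minus strand at chr17:22666688-22666937 and Ece1 on the plus strand at chr5:155360781-155361030. Capitals mark matches, on either strand, to the motif of GATA factors, AGATAA, that of hypoxia-inducible factors, ACGTG, and the core promoter motif TATAAA. The AP-1 motif TGANTCA was searched as well.
Edn1: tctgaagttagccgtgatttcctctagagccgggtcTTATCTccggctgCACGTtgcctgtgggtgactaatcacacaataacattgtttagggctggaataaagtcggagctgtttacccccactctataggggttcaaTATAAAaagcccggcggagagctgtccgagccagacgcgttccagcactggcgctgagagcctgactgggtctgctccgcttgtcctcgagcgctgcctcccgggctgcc
Ece1: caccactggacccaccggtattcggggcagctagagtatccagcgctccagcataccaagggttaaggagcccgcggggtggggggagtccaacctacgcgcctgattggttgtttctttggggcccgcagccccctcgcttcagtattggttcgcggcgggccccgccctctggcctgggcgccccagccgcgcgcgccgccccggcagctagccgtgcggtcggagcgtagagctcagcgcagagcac
Edn1 held the reverse complement of the GATA motif, TTATCT, from base -214, that of the hypoxia motif, CACGT, from base -201, and TATAAA from base -110, counted from the start. Of 33469 promoter stretches of this length, 10.3% held the GATA motif, 16.6% the hypoxia motif and 12.9% TATAAA, and 6.34% held TGANTCA. None of these letters overlapped another match. Ece1 held none of the 4 motifs in this window, and TGANTCA was in neither stretch. A match is a description of the letters and not a shown binding site.

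Among the ligands, Edn3 differed most between the tissues. In lithium medulla its log2 signal was 7.62, 7.77, 8.02, 8.20, 8.42 and 8.41 (animals 6, 17, 18, 19, 21 and 22). In control medulla it was 7.82, 7.56, 7.13, 7.42, 7.59 and 6.34 (animals 1, 13, 15, 16, 29 and 30). The 4 lithium animals 18, 19, 21 and 22 lay above all controls, and control animal 30 was the lowest of the 12 medulla arrays. In cortex Edn3 stayed under 6 on all arrays, with 5.41 to 5.73 (median 5.49) in lithium cortex and 5.23 to 5.69 (median 5.58) in control cortex. The group means were 8.07 ± 0.333 in lithium medulla, 7.31 ± 0.526 in control medulla (SD, n = 6 each), 5.51 ± 0.127 in lithium cortex (SD, n = 5) and 5.52 ± 0.181 in control cortex (SD, n = 6). Both medulla ranges lay above both cortex ranges, and within each tissue the lithium and control ranges overlapped.

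Edn1, the ligand best known as a vasoconstrictor, was measured at 6.35, 6.17, 6.29, 6.84, 6.59 and 6.46 in lithium medulla (animals 6, 17, 18, 19, 21 and 22). In control medulla it was 6.12, 6.26, 5.11, 6.67, 6.13 and 5.73 (animals 1, 13, 15, 16, 29 and 30). The lithium animals lay close together. The 4 control animals 1, 15, 29 and 30 lay below every lithium animal, animals 15 and 30 farthest, and the ranges overlapped through control animals 13 and 16. In lithium cortex Edn1 was 4.97, 4.92, 6.25, 5.45 and 5.19 (animals 6, 18, 19, 21 and 22), and in control cortex it ran between 4.97 and 5.58 (median 5.28). Animal 19, with its high fibroblast and macrophage markers, was the only cortex array at 6 or more. The means were 6.45 ± 0.237 in lithium medulla, 6.00 ± 0.532 in control medulla (SD, n = 6 each), 5.35 ± 0.541 in lithium cortex (SD, n = 5) and 5.25 ± 0.211 in control cortex (SD, n = 6), and all neighbours in this order overlapped.

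Edn2, the remaining ligand, had a signal near the filter value of 6 in every group. It was 5.71 to 6.17 (median 5.98) in lithium medulla, 5.71 to 5.97 (median 5.75) in control medulla, 5.59 to 5.82 (median 5.75) in lithium cortex and 5.74 to 6.02 (median 5.83) in control cortex. The group means spanned 5.73 to 5.96 and all neighbouring ranges overlapped.

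Ece1, the main endothelin-converting enzyme, was well above the filter on all 24 arrays. Its log2 signal was 8.68, 8.18, 8.53, 8.71, 8.56 and 8.66 in lithium medulla (animals 6, 17, 18, 19, 21 and 22) and 8.28, 8.73, 8.06, 8.57, 8.61 and 8.04 in control medulla (animals 1, 13, 15, 16, 29 and 30). The ranges overlapped, with control animals 15 and 30 lowest. In lithium cortex it was 7.67, 7.43, 8.53, 7.62 and 7.76 (animals 6, 18, 19, 21 and 22), and in control cortex 7.61, 7.83, 7.48, 7.47, 7.73 and 7.80 (animals 1, 13, 15, 16, 29 and 30). Animal 19 was the sole cortex array above 8, and the other 4 lithium animals lay within or just below the control range. The means were 8.55 ± 0.196 in lithium medulla, 8.38 ± 0.297 in control medulla (SD, n = 6 each), 7.80 ± 0.423 in lithium cortex (SD, n = 5) and 7.66 ± 0.157 in control cortex (SD, n = 6).

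Ece2, the related converting enzyme that works at acidic pH, was under 6 on all arrays. It was 5.35 to 5.73 (median 5.42) in lithium medulla, 5.11 to 5.62 (median 5.38) in control medulla, 4.96 to 5.51 (median 5.15) in lithium cortex and 5.09 to 5.34 (median 5.22) in control cortex. The highest lithium cortex value was again that of animal 19.

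**Figure D1:**
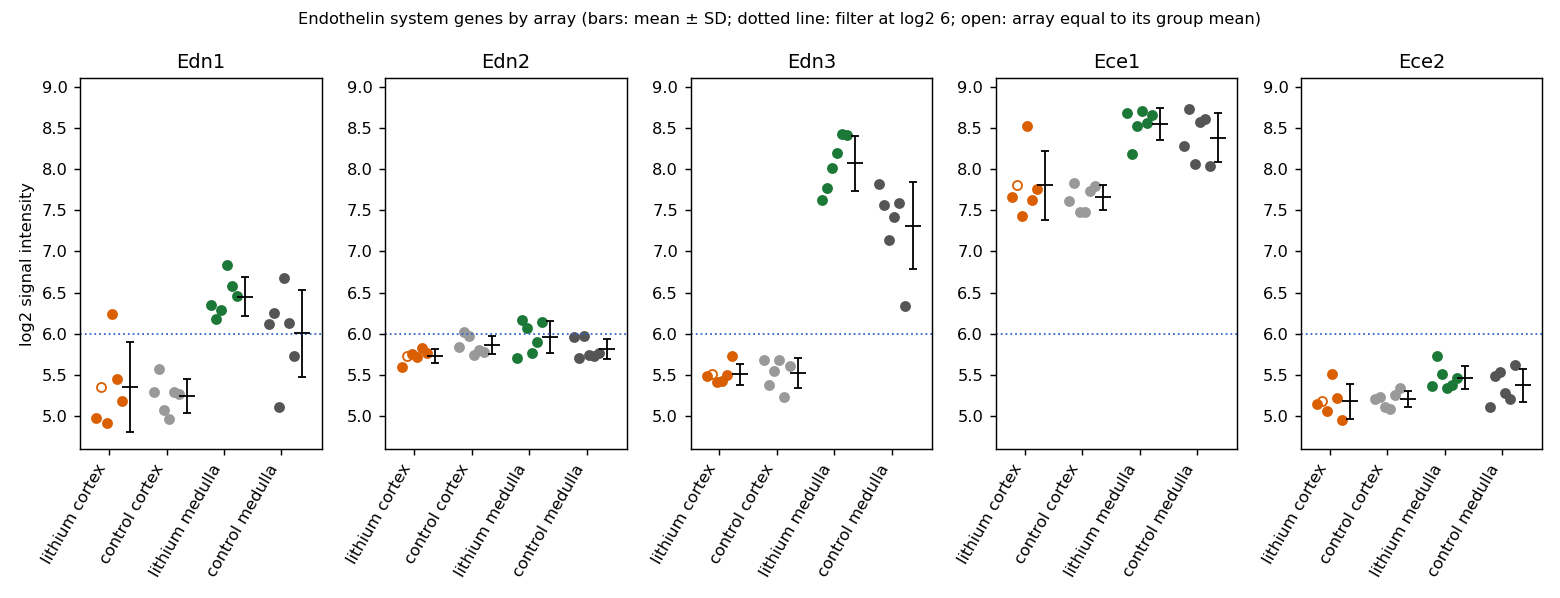
Log2 signal intensity of the 5 measured genes (y axis) on each array of lithium cortex, control cortex, lithium medulla and control medulla (x axis), with the mean ± SD beside the points; the open circle is the lithium cortex array equal to its group mean and the dotted line is the filter value of 6. Edn3 is at 5.23 to 5.73 on the cortex arrays and at 6.34 to 8.42 on the medulla arrays, and 1 lithium cortex array stands above the others for Edn1 and Ece1.

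The first comparison asked whether lithium changed these genes in medulla. None of the 3 members kept by the filter (Edn1, Edn3 and Ece1) passed the threshold of 0.05 after adjustment, where 1.19% of 16025 clusters did (limma with diet and scan group, Benjamini-Hochberg over all clusters tested). At an unadjusted p under 0.05 there was 1 of the 3, Edn3, against 19.6% of the clusters, and the methods' t-test with the same adjustment called 0 of the 3. At the methods' own threshold, an unadjusted p under 0.05 with a fold change over 1.5 and no scan group, 1 of the 3 passed, again Edn3, where 4.06% of clusters did. Edn3 was 0.76 higher in lithium medulla on the log2 scale (SE 0.246, 95% interval 0.22 to 1.30, a signal ratio of 1.69) and an adjusted p of 0.138 in limma. Edn1 was 0.45 higher (SE 0.232, interval -0.06 to 0.95, adjusted p = 0.310) and Ece1 0.17 higher (SE 0.152, interval -0.16 to 0.50, adjusted p = 0.555). Edn2 and Ece2 did not pass the filter. With no filter Edn2 was 0.14 higher (interval -0.09 to 0.38, adjusted p = 0.583) and Ece2 0.09 higher (interval -0.16 to 0.34, adjusted p = 0.749). The intervals of all but Edn3 include 0 and still allow a difference of 0.95 for Edn1. In that fit 0.478% of 28894 clusters passed.

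**Figure D2:**
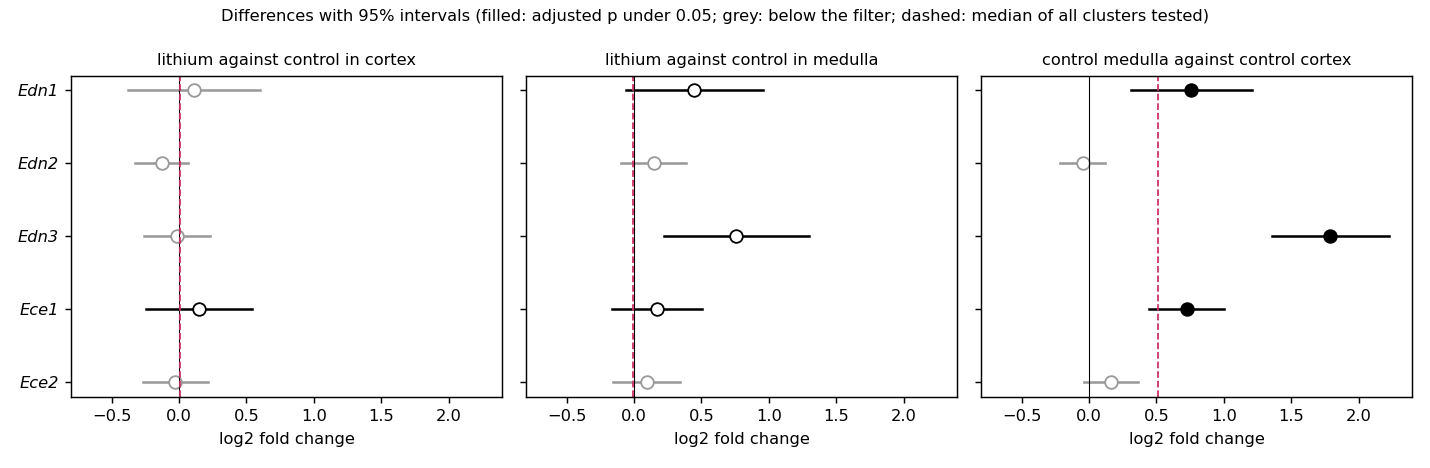
Log2 fold change (x axis) with its 95% interval for the 5 genes (rows) in lithium against control cortex, lithium against control medulla, and control medulla against control cortex; filled points passed an adjusted p of 0.05, grey ones lay below the filter and the dashed line is the median of all clusters tested. Edn1, Edn3 and Ece1 are the filled points, all in the tissue comparison, where the median of all clusters was itself at 0.51.

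The Edn3 difference in medulla was not even across the scan groups, the sets of arrays whose scan effect was removed together. Each medulla scan group held 2 lithium and 2 control arrays. Lithium minus control was 0.00 for animals 6, 17, 1 and 13, 0.83 for animals 18, 19, 15 and 16, and 1.45 for animals 21, 22, 29 and 30. For Edn1 the same differences were 0.07, 0.67 and 0.59, and for Ece1 -0.07, 0.30 and 0.28. Thus all 3 genes showed little or no difference in the first scan group, and control animals 15 and 30 belong to the other 2. Without both of these animals, a choice made after their values were seen, Edn3 was 0.43 higher (adjusted p = 0.174) and Edn1 0.11 higher (adjusted p = 0.668). Ece1 was then 0.02 lower, with a log2 fold change of -0.02 (adjusted p = 0.946), and 59 clusters in place of 190 passed the threshold. With single animals left out, Edn3 ran from 0.52 (control animal 30) to 0.89 (control animal 1) and did not pass. Without lithium animal 6 it was 0.87 higher, and 1053 clusters passed.

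**Figure D3:**
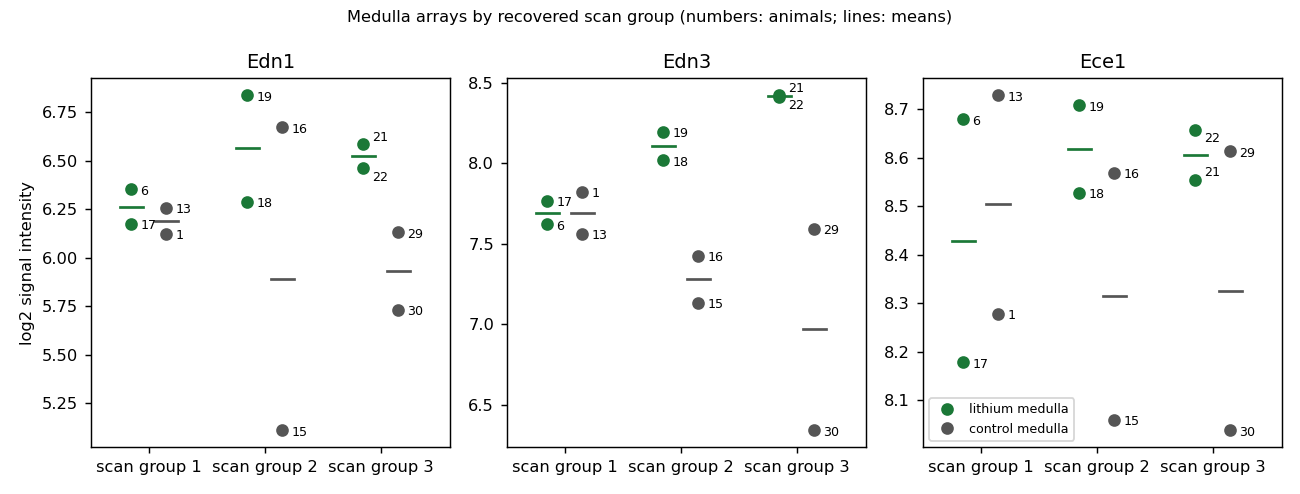
Log2 signal intensity (y axis) of Edn1, Edn3 and Ece1 on the medulla arrays in the 3 recovered scan groups (x axis), lithium medulla left of control medulla, with animal numbers beside the points and lines at the means. In scan group 1 the means of Edn3 lie 0.00 apart, in scan group 2 0.83 and in scan group 3 1.45.

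Some cell type markers also differed between the diets in medulla. Over the 9 intercalated cell markers, acid- or base-secreting cells of the collecting duct, lithium medulla arrays averaged 8.93 to 9.73 and control medulla arrays 6.30 to 8.74. Of the 8 such markers tested, 3 rose (Atp6v1g3, Slc4a9 and Oxgr1; 6 in a fit without scan group) and 0 fell, beside 1.19% of all clusters called. Over the 9 macrophage markers lithium medulla arrays averaged 7.23 to 7.64 and control medulla arrays 6.11 to 7.05, and of 8 tested 3 rose (Cd68, C1qa and Mrc1) and 0 fell, with 2 higher when each array was centred on its median and 5 without scan group. Cd163 had a mean under 6 in both medulla groups. Slc26a4 and Mrc1 did so in control medulla. Over 8 endothelium markers the medians had the other order, at 8.54 in lithium medulla and 8.97 in control medulla, with arrays at 8.28 to 8.77 in lithium medulla and 8.62 to 9.26 in control medulla, and 1 of the 8 fell (Emcn; 6 without scan group). Of 4 podocyte and glomerulus markers tested 1 fell, Podxl, which endothelium expresses as well. Over the 10 principal cell markers the groups overlapped, at 9.12 to 10.0 in lithium medulla and 9.27 to 10.2 in control medulla. No proximal tubule marker (median log2 fold change -0.64), thick ascending limb marker (-0.60) or inner medulla and thin limb marker (-0.47) passed in medulla. Without scan group 1052 of the 16025 clusters passed. The part of all these markers in the Edn3 values was not tested.

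**Figure D4:**
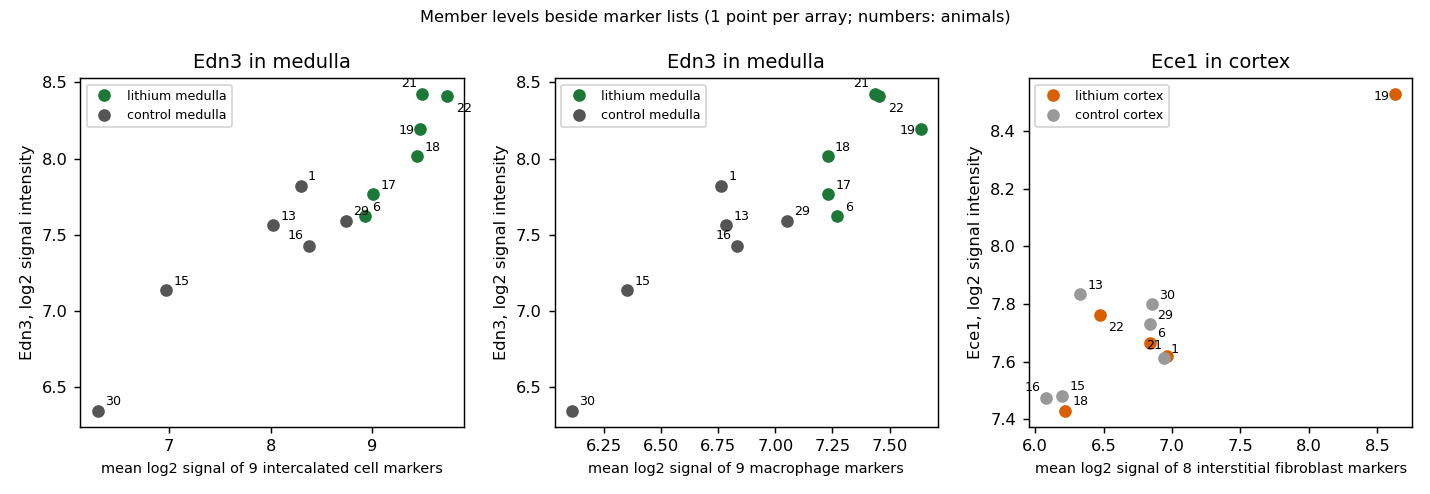
Edn3 in medulla against the mean of the intercalated cell and macrophage markers, and Ece1 in cortex against the mean of the interstitial fibroblast markers (both axes in log2 signal; 1 point per array with its animal number; the lithium cortex array equal to its group mean is left out). Control animals 30 and 15 are lowest on both axes in the medulla panels, and lithium animal 19, at 8.63 and 8.53, stands alone in the cortex panel.

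In cortex, 1 of the 5 measured genes, Ece1, was kept by the filter, and it was not called, where 0.574% of 13766 clusters were. Its difference was 0.15 (SE 0.180, 95% interval -0.25 to 0.54, adjusted p = 0.883, limma with diet and scan group), and the methods' t-test did not call it either, with adjustment or at the methods' own threshold, which 1.18% of clusters passed. Without animal 19 the log2 fold change turned to -0.06 (adjusted p = 0.883), so the higher mean of Ece1 in lithium cortex rested on that array. The genes below the filter had log2 fold changes of 0.11 for Edn1 (interval -0.38 to 0.60), -0.13 for Edn2 (-0.32 to 0.07), -0.01 for Edn3 (-0.26 to 0.23) and -0.03 for Ece2 (-0.27 to 0.21) in a fit with no filter, where 0.221% of clusters passed. Without animal 19 those of Edn1 and Edn3 changed sign, at -0.14 and 0.01.

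Markers of principal cells, the water- and sodium-reabsorbing cells of the collecting duct, moved with lithium in cortex. Of 9 tested 4 fell and 1 rose, beside 0.574% of all clusters called, and the median of the 9 was -0.46. Aqp2, the vasopressin-regulated water channel, averaged 8.53 in lithium cortex and 9.99 in control cortex (log2 fold change -1.46, adjusted p = 0.00391). The sodium channel subunit genes Scnn1b (-0.87) and Scnn1g (-1.44) and Hsd11b2 (-0.90), which inactivates glucocorticoids, fell as well, and the water channel gene Aqp4 rose by 2.17. Over the 10 principal cell markers lithium cortex arrays averaged 7.28 to 7.82 and control cortex arrays 7.60 to 8.20. Of 5 inner medulla and thin limb markers tested, Cldn4 rose (1.17). No marker of the other lists passed in cortex. Their part in the values of Ece1, the 1 member tested there, was not tested.

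Whether the lithium effect differed between the tissues was tested with an interaction term over the 24 arrays. Ece1, kept in both tissues, had a difference of 0.02 between its effects in medulla and cortex (SE 0.247, 95% interval -0.49 to 0.54, adjusted p = 0.976 in limma), where 0.0821% of 13403 clusters passed (11 clusters, and 3 with the animal as a block). Edn3 could be set against its cortex values only without the filter, since its cortex signal lay under 6. Its effect was then 0.77 larger in medulla (SE 0.293, interval 0.16 to 1.38), with an adjusted p of 0.381 in limma over 28894 clusters, of which 0.0381% passed. The same differences were 0.34 for Edn1 (adjusted p = 0.735), 0.27 for Edn2 (adjusted p = 0.496) and 0.12 for Ece2 (adjusted p = 0.794). A difference of the lithium effect between the tissues was thus not shown for any of the 5 genes.

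The comparison of the tissues in control rats gave the clearest values. Edn3 was 1.79 higher in control medulla than in control cortex on the log2 scale (SE 0.202, 95% interval 1.35 to 2.22, adjusted p = 2.66e-06 in limma). Its control cortex signal was under 6 on all arrays and no detection measure was used, so the size of the difference is one of signals and depends on that low end. Edn1 was 0.76 higher (SE 0.208, interval 0.31 to 1.21, adjusted p = 0.00411) and Ece1 0.73 higher (SE 0.129, interval 0.45 to 1.00, adjusted p = 1.55e-04). The 3 members tested passed as higher in control medulla, where 78.5% of 15579 clusters passed this comparison, 68.9% as higher in medulla and 9.63% as lower. Edn3 and Edn1 were kept by the filter through control medulla alone (6 of 6 and 4 of 6 arrays at 6 or more, against 0 of 6 in control cortex for both), so their direction was favoured by the filter and the count supports nothing about the endothelin genes as a group. The median cluster was 0.51 higher in medulla, and relative to it Edn3 was 1.28 higher, Edn1 0.25 and Ece1 0.21. In simulated data 10.7% of unchanged clusters had p under 0.05 in this fit by tissue alone, so its p-values are too small. With scan group within tissue added to the limma fit, adjusted p was 5.39e-05 for Edn3, 0.0138 for Edn1 and 0.00126 for Ece1, and 11557 clusters passed.

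How the arrays of the tissues were scaled to each other decided the calls of Edn1 and Ece1, but not that of Edn3. With each array centred on its median, Edn3 was 1.43 higher in control medulla (adjusted p = 3.73e-05), Ece1 0.37 (adjusted p = 0.0223) and Edn1 0.40 (adjusted p = 0.102), and 63.2% of clusters passed, 41.3% as higher and 21.9% as lower. With quantile normalization over the 24 arrays, Edn3 was 1.37 higher (adjusted p = 4.03e-05), Edn1 0.48 (adjusted p = 0.0483) and Ece1 0.18 (adjusted p = 0.264), and 5129 clusters passed as higher and 4336 as lower, against 10732 and 1500 on the deposited values. Edn2 and Ece2 lay below the filter. With no filter 61.8% of clusters passed, and on the deposited scale the log2 fold change was -0.05 for Edn2 (adjusted p = 0.617) and 0.16 for Ece2 (adjusted p = 0.143). After centring Edn2 was lower in control medulla, at -0.41 (adjusted p = 5.17e-04), and Ece2 turned to -0.19 (adjusted p = 0.0836). Scan effects had been removed in each tissue separately, so that scan and tissue cannot be told apart here.

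Within animals the medulla array was higher than the cortex array for Edn3 in 6 of 6 lithium rats, by 2.13 to 2.92, and in 6 of 6 control rats, by 0.73 to 2.36. For Edn1 the difference ran between 0.59 and 1.38 in the 6 lithium rats and between 0.04 and 1.71 in the 6 control rats. For Ece1 it was 0.18 to 1.10 in lithium rats and 0.24 to 1.09 in control rats. Edn2 was higher in medulla in 6 of 6 lithium rats and in 2 of 6 control rats, and Ece2 in 5 of 6 and in 4 of 6. These counts are on the deposited scale and include the cortex array of lithium animal 17, which equals its group mean.

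Among genes that process or break down endothelins, Mmp2 rose with lithium in both tissues. This gelatinase can cut big endothelin-1. In lithium cortex it averaged 8.60 and in control cortex 6.81, a log2 fold change of 1.79 (SE 0.199, adjusted p = 0.00165). In lithium medulla it averaged 9.65 and in control medulla 7.48, with 2.17 (SE 0.252, adjusted p = 0.00309). It was the only gene of this list to pass in either tissue (of 6 tested in cortex and 7 in medulla). Over all clusters 0.574% passed in cortex and 1.19% in medulla. The list's median was -0.11 in both, against 0.01 over all clusters in cortex and -0.01 in medulla. Mmp2 was itself among the genes of interest of the study. In the tissue comparison 4 of 7 were higher in control medulla and 1 lower, beside 68.9% higher and 9.63% lower over all clusters. Only 6 genes of the list were kept in cortex, so the filter favoured a higher medulla value for any gene kept through medulla alone. The proprotein convertase gene Pcsk6 averaged 8.72 in control medulla and 4.91 in control cortex (log2 fold change 3.81), the aminopeptidase gene Lnpep was 1.81 higher and the convertase gene Pcsk7 0.81 higher, and the convertase gene Pcsk5 was lower in control medulla, with -0.69. In lithium medulla Pcsk6 averaged 7.42 and in control medulla 8.72, with an adjusted p of 0.146.

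Downstream of the receptors, the list of G proteins and phospholipase C isoforms with their effectors had 19 genes tested in each tissue. Of these 0 passed in cortex, beside 0.574% of all clusters, and 1 in medulla, beside 1.19%. At such shares lists this short would hold few or no called genes. The 1 gene was Itpr2, an inositol trisphosphate receptor that releases stored calcium. Itpr2 averaged 9.72 in lithium medulla and 8.87 in control medulla, a log2 fold change of 0.85 (SE 0.113, adjusted p = 0.00686). Its relative Itpr3 averaged 8.94 in lithium medulla and 8.30 in control medulla and did not pass (adjusted p = 0.0827). The list's median was 0.08 in cortex and -0.10 in medulla. In control medulla 16 of 19 were higher than in control cortex and 2 lower, beside 68.9% higher and 9.63% lower over all clusters, with a median of 0.69 against 0.51 over all clusters. With each array centred 11 were higher and 3 lower, beside 41.3% and 21.9%. Itpr3 was 1.50 higher and the phospholipase gene Plcb4 1.38 higher.

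Kinases, arrestins and RGS proteins shut down G protein-coupled receptors and their G proteins. With lithium 0 of 7 tested passed in cortex and 0 of 9 in medulla, beside 0.574% and 1.19% of all clusters. The list medians were 0.12 and -0.07. In control medulla 9 of 9 were higher than in control cortex, beside 68.9% of all clusters, with a median of 1.17 against 0.51. After centring 8 of 9 were higher, beside 41.3%. Only 7 genes of this list were kept in cortex, so the filter favoured this direction for any gene kept through medulla alone. Arrb1 was 2.00 higher, Grk5 1.64, Rgs5, a pericyte marker as well, 1.51, and Rgs4 1.34. Through the nitric oxide and cyclic GMP branch the B receptor relaxes vessels and acts on the collecting duct. This list had 0 of 7 genes past the threshold in cortex and 0 of 10 in medulla, beside the same shares of all clusters. Its medians were 0.02 and 0.07. Nos1, the neuronal nitric oxide synthase, averaged 5.99 in lithium medulla and 7.07 in control medulla (adjusted p = 0.151). In the tissue comparison 7 of 10 were higher in control medulla and 2 lower (4 and 3 after centring), beside 68.9% and 9.63% of all clusters (41.3% and 21.9% after centring). Among them were Nos1 with 1.54 and the cyclic GMP phosphodiesterase gene Pde5a with 1.37. Nostrin had -1.37 and the guanylate cyclase subunit gene Gucy1a1 -1.07. Only 7 genes of the nitric oxide list were kept in cortex, so the filter favoured a higher medulla value here too.

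The list of transcriptional regulators of Edn1 also holds the kinase gene Sgk1. Of its 16 genes tested in each tissue, 0 passed with lithium in cortex and 0 in medulla (limma). Over all clusters 0.574% and 1.19% did, and the list medians were 0.04 and 0.01. Hif1a, the oxygen-regulated factor, averaged 9.02 in lithium medulla and 9.52 in control medulla, with an adjusted p of 0.0827. In control medulla 15 of 16 were higher than in control cortex, beside 68.9% of all clusters, with a median of 0.80 against 0.51. After centring 10 were higher and 1 lower, beside 41.3% and 21.9%. Gata2 (1.53), Gata3 (1.50), Hif1a (1.19) and Rela (1.19) had the largest changes, and Gata3 is also a principal cell marker. In the interaction fit 0 genes of these 5 lists passed, beside 0.0821% of all clusters.

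Across the arrays the members did not all vary together. The deviations of Edn1 and Ece1 from their group means had a Pearson r of 0.74 and a Spearman coefficient of 0.80 over the 12 medulla arrays, and r was 0.75 without the 2 arrays farthest in Edn1. Over the 11 cortex arrays with values of their own r was 0.92 and the Spearman coefficient 0.73, and without 2 arrays, one of them that of animal 19, r was 0.67. Edn1 and Edn3 had an r of 0.49 in medulla, and Edn3 and Ece1 one of 0.56. With Ece2, which lay below the filter, these genes went the other way in medulla: r was -0.59 for Edn1, -0.67 for Edn3 and -0.58 for Ece1. Edn2, also below the filter, had an r there of -0.48 with Edn1, -0.58 with Ece1, 0.15 with Edn3 and 0.32 with Ece2. These arrays share scan groups and normalization, and no test was made of 20 such pairs.

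The genes with a pattern most like that of Ece1, by the lower of Pearson's r over the 12 cortex and the 12 medulla arrays among 8088 named genes, were Nfix (0.92 in both), Slit3 (0.91 in cortex and 0.92 in medulla) and Osmr (0.90 and 0.92). Among the 12 cortex arrays, that of animal 17 equals its group mean. Over the other 11 r in cortex was 0.92, 0.91 and 0.90, and over 10 without animal 19 it was 0.71, 0.58 and 0.60. Over the 12 the Spearman coefficient was 0.80, 0.66 and 0.70. Edn1 and Edn3 were below the filter in cortex, and likeness over the 12 medulla arrays alone, among 9446 genes, was added after their values were seen. For Edn1 it gave Slc26a8 (0.94), Rasgrp4 (0.94) and Mfhas1 (0.93), with Spearman coefficients of 0.94, 0.83 and 0.85. For Edn3 it gave Tyrobp (0.96), C1qb (0.95) and Atp6v1b1 (0.95), with Spearman coefficients of 0.87, 0.85 and 0.91. The adaptor gene Tyrobp and the complement subunit gene C1qb are macrophage genes, and the proton pump subunit gene Atp6v1b1 is an intercalated cell gene. These medulla values take lithium and control arrays together. The part of the diet difference in them was not tested. Nor was that of the control arrays lowest in Edn3 and in macrophage and intercalated cell markers.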

How the data were processed

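Both kidney tissues of 12 rats were measured, on 24 arrays. The deposited values are log2 intensities of 28894 clusters. The authors corrected the background with RMA, normalized by quantiles and applied median polish in Partek, subtracted an effect of scan date within each tissue, and took the mean of the probe sets of a transcript. RMA, Partek and rn4 are also named in the submitters' processing notes. Array medians were 5.75 to 5.83 in cortex and 6.12 to 6.22 in medulla. No detection measure was used, and the number of arrays limits the precision.

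The platform annotation gave 1 symbol to 15097 clusters, several to 323 and none to 13474. A cluster was tested if 4 or more of 12 arrays reached a log2 of 6. Tests used limma 3.58.1 (R 4.3.3, lmFit with eBayes), 2-sided, with Benjamini-Hochberg adjustment over all of them and a threshold of 0.05. Clusters below it were fitted without the filter. Diets were compared in each tissue with scan group as a covariate. The sources used here give no scan dates. The scan groups were recovered from directions without residual variance. They are {1, 6, 13, 17}, {15, 16, 18, 19} and {21, 22, 29, 30} by animal in medulla, and the same in cortex except that animal 17 stands alone. Control tissues were compared by tissue alone, over 12 control arrays. Tables were prepared in Python 3.11.15 (numpy 2.4.6, pandas 2.3.3, scipy 1.17.1) and drawn with matplotlib 3.10.9.

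The fits were tested on simulated data. At log2 changes of 0.5, 1 and 2, the fit with scan group recovered 20.9%, 82.1% and 98.5% of changed clusters in cortex and 50.7%, 82.1% and 100% in medulla. Among unchanged clusters 5.12% in cortex and 5.08% in medulla had p under 0.05, and 12.1% and 8.15% without scan group. In the tissue fit 56.7%, 92.5% and 100% were recovered and 10.7% of unchanged clusters had p under 0.05, so its p-values are too small.

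Cortex and medulla arrays are paired by the animal number in the labels. Over 11 animals the correlation of their deviations from the group means was -0.0867 to 0.438, over 0.1 in 6, and the animal was a block in an alternative.

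The members, gene lists and markers were chosen with earlier results of these data known. The text names all members and the 3 genes most like each of Edn1, Edn3 and Ece1. From each pathway list it names up to 4 genes with the largest change past the threshold, with the cell type markers that passed with lithium. The text names Itpr3, Pcsk6, Nos1 and Hif1a in medulla although they did not pass there, a choice made after their values were seen. Some genes that this rule takes from the list of G proteins are not reported here. Alternatives were the scan group, filter, normalization, variance model, t-test, animal block and samples left out.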

Additional observations from a re-analysis of the deposited data

Results flagged for a closer look

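In 20 groups of 5 or 6 arrays (5 genes in 4 groups), 2 held an array farther from the rest than Dixon's 95% limit, where chance flags about 1 in 20. Edn3 in lithium cortex was 5.73 in animal 22, and the next array was at 5.50, all of them under the filter value of 6. Ece1 in lithium medulla was 8.18 in animal 17, and the next array was at 8.53. The same array of animal 17 had the lowest mean of all medulla arrays over 7 thick ascending limb markers (6.68, against 8.08 to 10.6 in the other lithium medulla arrays), whose part in the Ece1 value was not tested.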

How the results depend on the processing

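Edn3 was higher in lithium medulla under every alternative run. By a t-test without scan group it passed the study's cutoffs (unadjusted p under 0.05 with a fold change over 1.5, 0.76). At an adjusted p of 0.05 it passed under no alternative. Its log2 fold change ran between 0.43 and 0.89 and its adjusted p between 0.0611 (no scan group) and 0.265 (without animal 22), with 0.52 to 0.89 when each animal was left out. For Edn1 leaving out animals gave 0.22 (without animal 15) to 0.61, for Ece1 0.08 to 0.26 in medulla and -0.062 (without animal 19) to 0.25 in cortex. Ece1 in medulla turned to -0.020 without control animals 15 and 30. Its interaction of 0.02 turned to -0.024 with centred arrays and ran between -0.10 and 0.19 with animals left out. In the tissue comparison Edn1 no longer passed with centred arrays (0.40), nor Ece1 with quantile normalization over 24 arrays (0.18); left-out animals gave 0.57 to 0.90 for Edn1, 1.68 to 2.00 for Edn3 and 0.65 to 0.82 for Ece1. The animal as a replicate block changed no call of a member there (adjusted p of 0.00466 for Edn1, 5.75e-05 for Edn3 and 3.99e-04 for Ece1, with 12240 clusters called against 12232). Below the filter, Edn1 (-0.14) and Edn3 (0.012) in cortex changed sign without animal 19, and Ece2 between tissues (-0.19) and the call of Edn2 (-0.41) changed with centred arrays.

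Counts over all clusters depended more on the processing. The 79 clusters in cortex became 288 without scan group, 296 by the t-test with adjustment and 163 at its unadjusted threshold with a fold change over 1.5. The 190 in medulla became 1052, 650 and 651, and 59 without control animals 15 and 30. The 11 of the interaction became 274 without scan group, 7 with centred arrays, 7 with an intensity trend and 3 with the replicate block. Leaving out an animal gave 34 (animal 22) to 92 in cortex, 50 (animals 21 and 22) to 1053 (animal 6) in medulla, 3 (animal 21) to 34 (animal 6) in the interaction and 11667 to 12007 between the tissues. The cause was not tested, except that leaving out animals gives fewer arrays. Other clusters of the same gene could not be tried, since each member had 1. The 6 arrays of a group limit what can be shown for differences of 0.5, and a signal under 6 limits Edn2, Ece2 and the cortex values of Edn1 and Edn3.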
